A study of Homo sapiens with 24 samples.

Results

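The 10 genes of the immunoproteasome and the peptide loading pathway (TAP1, TAP2, TAPBP, TAPBPL, PSMB8, PSMB9, PSMB10, PSME1, PSME2 and ERAP1) were followed in HepG2 cells, an established human hepatocellular carcinoma line. They were chosen by symbol from the deposited gene counts, and all 10 were found among the 26475 gene symbols in the files. Total RNA had been sequenced in 24 libraries, as 8 groups of 3: the solvent DMSO, 50 nM of ABBV-075, 50 or 500 nM of ABBV-744, interferon gamma (IFNg) alone, and IFNg with each of those 3 inhibitor treatments. Every group was the same cell line, with no genetic change named in the labels, and replicates were separate libraries whose cultures the labels do not describe, so that p-values measure the spread between these libraries. ABBV-075 blocks both bromodomains of the BET proteins and ABBV-744 favours the second. Of the groups here, the study's methods describe only DMSO and ABBV-075, with depletion of ribosomal RNA, strand-specific libraries, 24 h of DMSO and 12 h of ABBV-075, so that time and treatment cannot be told apart if these libraries followed them. Neither the time of the other treatments nor the dose of IFNg is given in the sources used here.

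Proteins inside a cell are cut into peptides by the proteasome, and a sample of those peptides is shown to T cells on MHC class I molecules. IFNg replaces the constitutive catalytic subunits PSMB6, PSMB5 and PSMB7 in newly made proteasomes by PSMB9, PSMB8 and PSMB10, and adds the PA28 cap built from PSME1 and PSME2. TAP1 and TAP2 together form the pump that carries peptides into the endoplasmic reticulum, where ERAP1 trims them. TAPBP (tapasin) holds class I molecules at the pump while they are loaded, and TAPBPL is a tapasin relative that edits the peptide repertoire away from the pump. IRF1 and NLRC5 are known carriers of the IFNg signal to these genes, and IRF1 binds interferon-stimulated response elements.

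Promoter windows from RefSeq, 250 bases before to 50 after each start site on GRCh38.p14, were matched to all 10 genes. The core of the interferon-stimulated response element was searched on both strands as 2 copies of GAAA with any 2 bases between them, and 7 of the 10 windows held it, against 3.65% of 27305 promoters. The windows of TAPBPL, PSMB8 and PSMB9 did not hold these letters. The gamma-activated site, searched as TTCNNNGAA on both strands, was in none of the 10 windows and in 7.88% of all promoters. The GC box, searched as GGGCGG on both strands, was in 8 of the 10 windows and in 44.6% of all promoters. These are descriptions of letters in a window, since no binding was measured. The windows below are shown because they belong to both subunits of the pump (TAP1, TAP2), to the 3 induced catalytic subunits (PSMB10 with the motif, PSMB8 and PSMB9 without) and to the gene with the smallest response to IFNg (ERAP1). Each is written 5′ to 3′ on the strand of its gene, with matches to that core or its reverse complement in capitals.
TAP1: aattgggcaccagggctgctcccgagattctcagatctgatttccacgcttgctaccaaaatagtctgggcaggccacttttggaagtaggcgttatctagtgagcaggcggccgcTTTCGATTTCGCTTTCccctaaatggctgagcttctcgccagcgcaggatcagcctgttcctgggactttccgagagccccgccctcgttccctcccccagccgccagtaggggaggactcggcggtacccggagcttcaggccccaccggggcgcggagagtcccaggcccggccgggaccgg
TAP2: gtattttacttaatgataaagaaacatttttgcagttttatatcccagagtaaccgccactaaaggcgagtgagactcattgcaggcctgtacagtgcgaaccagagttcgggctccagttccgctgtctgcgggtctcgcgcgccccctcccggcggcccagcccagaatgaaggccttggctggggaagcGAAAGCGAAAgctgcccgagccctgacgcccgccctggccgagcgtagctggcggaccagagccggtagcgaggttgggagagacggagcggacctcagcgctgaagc
PSMB10: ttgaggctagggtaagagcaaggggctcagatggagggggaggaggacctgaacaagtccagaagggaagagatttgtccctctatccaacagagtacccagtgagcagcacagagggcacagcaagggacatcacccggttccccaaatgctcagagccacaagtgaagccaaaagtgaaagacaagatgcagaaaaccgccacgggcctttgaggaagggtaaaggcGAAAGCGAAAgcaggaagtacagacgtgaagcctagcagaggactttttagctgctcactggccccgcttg
PSMB8: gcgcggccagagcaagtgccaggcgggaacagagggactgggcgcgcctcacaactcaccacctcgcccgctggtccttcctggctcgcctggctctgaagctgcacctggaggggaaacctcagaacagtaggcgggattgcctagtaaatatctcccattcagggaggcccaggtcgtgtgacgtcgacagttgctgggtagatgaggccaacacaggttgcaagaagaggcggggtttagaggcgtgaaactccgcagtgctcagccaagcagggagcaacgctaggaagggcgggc
PSMB9: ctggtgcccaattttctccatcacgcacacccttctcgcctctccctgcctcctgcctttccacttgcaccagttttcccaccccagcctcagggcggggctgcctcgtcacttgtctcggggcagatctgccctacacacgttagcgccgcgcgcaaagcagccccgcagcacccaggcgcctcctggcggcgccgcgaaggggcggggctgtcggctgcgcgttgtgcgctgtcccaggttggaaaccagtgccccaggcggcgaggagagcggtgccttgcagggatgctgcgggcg
ERAP1: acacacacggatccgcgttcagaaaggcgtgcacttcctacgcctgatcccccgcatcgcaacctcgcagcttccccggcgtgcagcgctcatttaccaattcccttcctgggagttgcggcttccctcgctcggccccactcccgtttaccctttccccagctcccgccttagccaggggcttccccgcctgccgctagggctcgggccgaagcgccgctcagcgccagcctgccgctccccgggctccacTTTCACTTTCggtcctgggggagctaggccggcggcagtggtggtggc

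The windows lie at chr6:32853655-32853954 (TAP1), chr6:32838690-32838989 (TAP2), chr16:67936801-67937100 (PSMB10), chr6:32844630-32844929 (PSMB8), chr6:32853942-32854241 (PSMB9) and chr5:96807896-96808195 (ERAP1), on the minus strand except for PSMB9. Counted from the start site, the match of TAP2 began at -58 and that of PSMB10 at -21, while that of ERAP1 began at 3, just inside the transcript. TAP1 had 2 overlapping matches, TTTCGATTTC from -134 and TTTCGCTTTC from -128. TAPBP also had 2 overlapping matches, both GAAAGTGAAA, from -20 and from -14. PSME2 held GAAAGCGAAA from -28, the same letters as TAP2 and PSMB10, and PSME1 held the reverse complement TTTCGCTTTC from 6. TAP1 and PSMB9 point away from each other with 487 bases between their start sites, so the pair of matches upstream of TAP1 ends 354 bases before the start site of PSMB9, outside the window searched for it.

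TAP1, TAP2, TAPBP, PSMB8 and PSMB9 lie in the MHC region of chromosome 6: TAP2 (chr6:32821833-32838739), PSMB8 (chr6:32840717-32844679), PSMB9 (chr6:32844136-32859851), TAP1 (chr6:32845209-32853816) and TAPBP (chr6:33299694-33314284), by GENCODE on GRCh38. PSME1 (chr14:24136163-24138967) and PSME2 (chr14:24143362-24147570) are neighbours, and TAPBPL (chr12:6451690-6466517), PSMB10 (chr16:67934506-67936864) and ERAP1 (chr5:96760810-96808100) lie apart. The longest isoform of PSMB9 runs over TAP1 and PSMB8 on the opposite strand, and the counts used here are those on the strand of the gene. TAPBPL shares its strand with CD27 where they overlap, and PSMB9 with PSMB8-AS1, so reads there are uncertain.

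Counts on genes were between 2978982 and 4304103 per library, and reads that align to several places, which the counting leaves out, made up 56.0% to 69.4% of each file. Levels are given as CPM, counts brought to a common library size after TMM scaling over all 24 libraries. Marks of the treatments were checked first: IRF1 rose from 48 to 51 counts per DMSO library to 766 to 902 counts with IFNg, and HEXIM1, a transcript that BET inhibitors raise, went from 202 to 256 counts in DMSO to 505 to 568 counts with ABBV-075. HEXIM1 also passed as higher with ABBV-744 at 500 nM (log2 fold change 0.74), but not at 50 nM without IFNg (0.29, adjusted p = 0.0816) or with it (0.09). The liver marker ALB had 5980 to 14452 counts in every library and AFP 1884 to 7526, whereas the leukocyte marker PTPRC and the T cell marker CD3E were at 0 counts in all 24. The other markers of other cell types ranged up to 86 counts for CD68, 8 for CIITA, 5 for PECAM1 and 2 for COL1A1. The summed CPM of these 6 markers, mostly CD68, was 18.5 to 21.7 in DMSO, 8.44 to 19.5 with an inhibitor alone, 21.3 to 26.3 with IFNg and 8.90 to 13.98 with IFNg and an inhibitor, and its part in the results was not tested. ABBV-075 replicate 3 stood furthest from its group, and it is named below where a call changed without it.

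In libraries without inhibitor, IFNg raised all 10 genes. Their log2 fold changes ran from 1.07 for ERAP1 to 4.49 for PSMB9, with a median of 1.86 against 0.00 over all genes tested. All 10 passed the test (edgeR's quasi-likelihood test, Benjamini-Hochberg adjusted p of at most 0.05), where 2.76% of 11217 genes tested passed as higher, and 7 of the 10 also exceeded the study's fold threshold of 1.5 on the log2 scale, where 0.82% of genes did. In all 10, every IFNg library lay above every DMSO library, which 9.82% of genes showed. All 10 also passed with each library left out in turn.

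PSMB9, the induced counterpart of PSMB6, was the most responsive gene. It had 30, 29 and 25 counts in the DMSO libraries and 511, 519 and 593 counts with IFNg, or 6.81 ± 1.09 CPM and 152.8 ± 13.2 CPM (mean ± SD, n = 3 each). The IFNg libraries were all high and far from the DMSO libraries, and the log2 fold change was 4.49 (standard error, SE, 0.14, adjusted p = 1.03e-25). PSMB8, the counterpart of PSMB5, stood at 10.7, 9.32 and 8.82 CPM in DMSO and at 53.2, 53.4 and 54.3 CPM with IFNg, a log2 fold change of 2.48 (SE 0.15, adjusted p = 2.70e-16). The 3 IFNg libraries were nearly level with each other. PSMB10, the counterpart of PSMB7, stood at 29.0, 24.2 and 26.0 CPM in DMSO and at 110.2, 144.9 and 142.7 CPM with IFNg, a log2 fold change of 2.33 (SE 0.12). Replicate 1 was the lowest of its IFNg libraries and still above all DMSO libraries.

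The constitutive subunits did not pass this test. PSMB5 had a log2 fold change of 0.07 (95% confidence interval -0.07 to 0.20), PSMB6 of 0.10 (-0.08 to 0.28) and PSMB7 of 0.09 (-0.07 to 0.25), so increases above 0.28 on the log2 scale lie outside all 3 intervals. Levels between genes were compared per length, as CPM per kb of the canonical transcript in GENCODE. On that scale PSMB9 made up 4.4% ± 0.43 of the sum of PSMB9 and PSMB6 in DMSO (SD, n = 3), and 49.1% ± 1.42 with IFNg. PSMB10 went from 14.0% ± 0.86 to 43.3% ± 3.43 of its sum with PSMB7. PSMB8 went only from 1.37% ± 0.07 to 6.88% ± 0.29 of its sum with PSMB5, and the 3 shares therefore stayed far from equal. These are shares of transcripts, not of assembled proteasomes. Whether the alignment held alternate copies of the MHC region is not given in the sources used here. Such copies could lower the counts of MHC genes, since reads that align to several places were left out. Levels of PSMB8, PSMB9 and the other MHC genes against genes elsewhere are therefore uncertain.

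**Figure D1:**
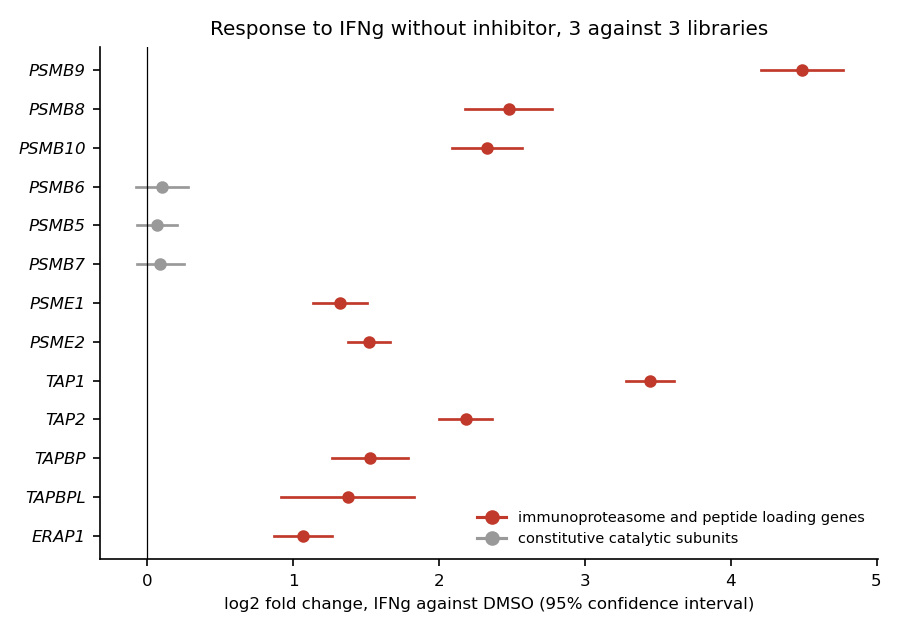
Log2 fold change of each gene, IFNg against DMSO, with the 95% confidence interval of edgeR's quasi-likelihood fit (3 against 3 libraries). The 10 immunoproteasome and peptide loading genes (red) lie between 1.07 and 4.49, and the constitutive subunits PSMB5, PSMB6 and PSMB7 (grey) lie at 0.07 to 0.10 with intervals that include 0.

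The pump subunits rose by different amounts. TAP1 stood at 67.3, 61.7 and 63.9 CPM in DMSO and at 689, 698 and 719 CPM with IFNg, a log2 fold change of 3.45 (SE 0.08, adjusted p = 8.45e-30). TAP2 stood at 60.6, 56.6 and 58.4 CPM in DMSO and at 243, 278 and 278 CPM with IFNg, a log2 fold change of 2.18 (SE 0.09). The 95% confidence intervals, 3.29 to 3.61 for TAP1 and 2.00 to 2.36 for TAP2, did not overlap. Per kb, TAP1 was at 23.95 CPM and TAP2 at 10.4 CPM in DMSO, and at 261 and 47.2 CPM with IFNg.

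The loading and trimming factors and the cap rose least. TAPBP went from 24.9 ± 2.38 to 71.7 ± 10.3 CPM (n = 3 each), a log2 fold change of 1.53, and TAPBPL from 7.47 ± 1.18 to 19.4 ± 6.67 CPM, a log2 fold change of 1.37. TAPBPL was the least even of the genes, with 15.8, 15.4 and 27.1 CPM in the IFNg libraries, replicate 3 standing high. The cap subunits PSME1 and PSME2 had log2 fold changes of 1.32 and 1.52, and PSME2 was per kb the most abundant of the 10 genes in DMSO, at 284 CPM per kb. ERAP1 went from 59.9 ± 6.05 to 125.7 ± 4.39 CPM, a log2 fold change of 1.07 (SE 0.10, adjusted p = 5.40e-11).

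Elsewhere in the pathway the response to IFNg was uneven. Of the 11 other core subunits of the proteasome, 6 passed as higher and none as lower, where 2.76% of genes passed as higher. Their median log2 fold change was 0.32, and the largest was that of PSMA6, an alpha ring subunit (0.52). None of the 18 regulatory particle subunits passed by edgeR in either direction, while 1 had an unadjusted p under 0.05 and DESeq2 called none. Of the 8 assembly factors and other activators 2 passed as higher, the largest being the chaperone PSMG4 (0.59), and PSME3, the cap subunit of nuclear proteasomes, did not pass (0.08). Among 9 genes of peptide supply, chaperones and the class I light chain, ERAP2, a second trimming peptidase (2.08), and B2M, the light chain itself (1.33), passed as higher. The loading chaperones CALR (0.20), CANX (0.03) and PDIA3 (0.29) did not pass. Of 5 class I heavy chain genes tested, 4 passed as higher, the largest being HLA-E (3.501), and reads of these near-identical genes are uncertain because reads that align to several places were left out. The fold changes of this comparison had a Spearman correlation with GC content of 0.31 across genes. After a correction for GC content, 9 of the 11 core subunits and 4 of the 9 peptide supply genes passed as higher, where 3.41% of genes did.

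**Figure D2:**
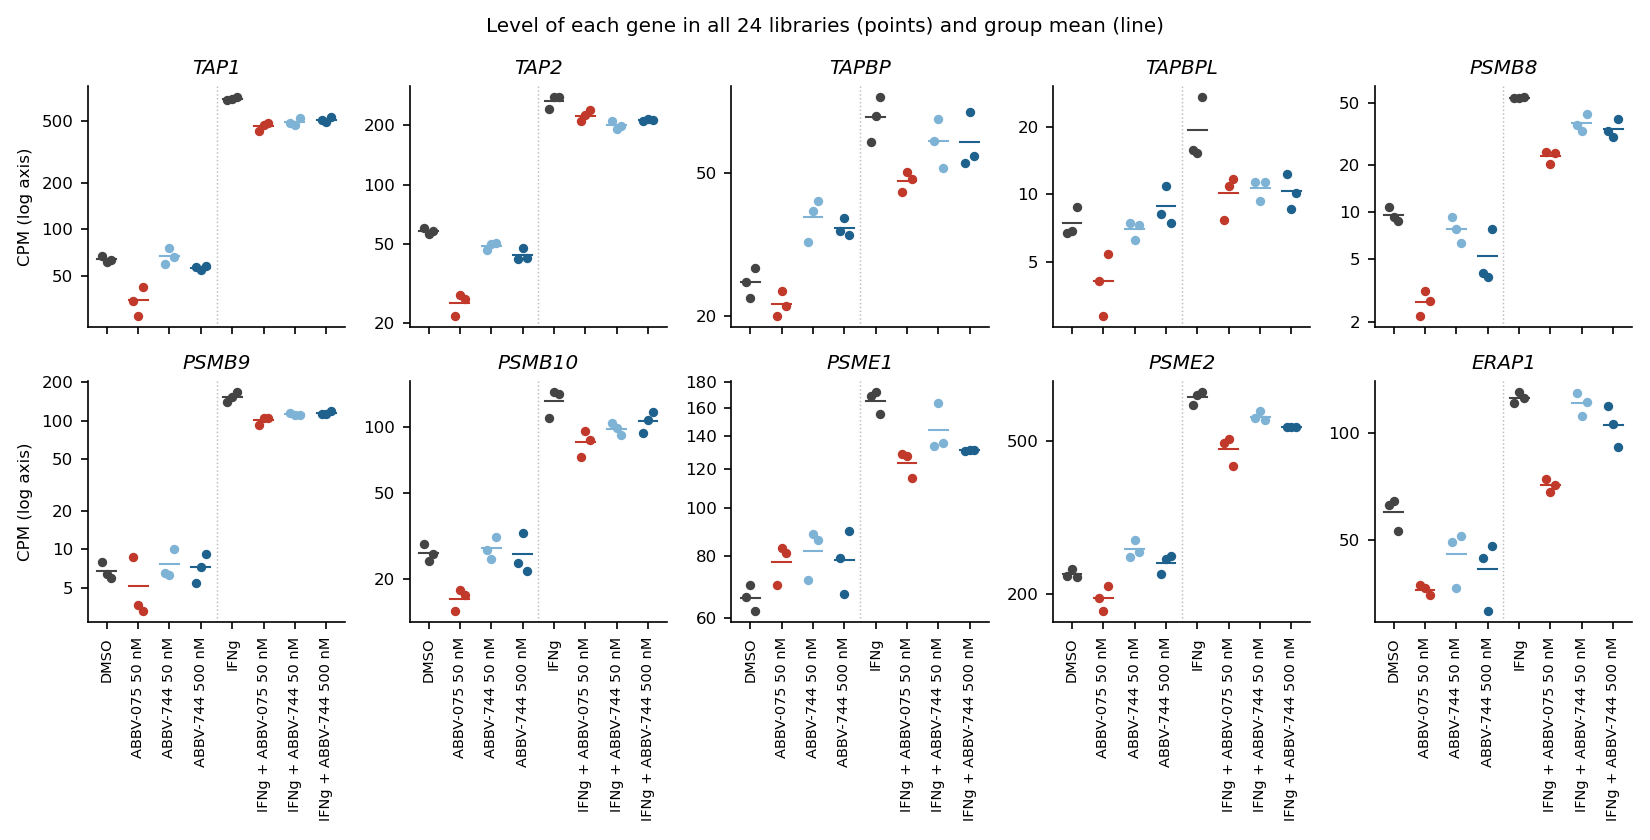
CPM (log axis) of each of the 10 genes in all 24 libraries, by group; points are libraries and lines are group means. For 9 of the 10 genes every library with IFNg, with or without inhibitor, lies above every library without it, and TAPBPL is the exception. The share of all genes that do so was not computed.

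Across the 8 groups, all 10 genes had their highest mean with IFNg alone, and 9 of the 10 had their lowest with ABBV-075 alone. PSME1 was the exception, lowest in DMSO. In 9 of the 10 genes every library with IFNg lay above every library without it. For TAPBPL the lowest library with IFNg, at 7.71 CPM, lay below the highest without, at 10.9 CPM. The shares of all genes with such an order of means or such a separation were not computed. These counts therefore describe the 10 genes only. The span from the lowest to the highest group mean was widest for PSMB9 (29.2-fold) and narrowest for PSME1 (2.51-fold). Within the 4 IFNg groups, the neighbours in the order of means overlapped in places. For TAP1 the 3 groups with inhibitor, at 464.6, 495.7 and 511.7 CPM, overlapped with their neighbours, and only IFNg alone, at 701.9 CPM, stood clear. For PSMB10 all 4 groups with IFNg overlapped with their neighbours in the order.

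Without IFNg, ABBV-075 lowered 6 of the 10 genes against DMSO and raised none by this test, where 19.8% of 11244 genes passed as higher. The median log2 fold change of the 10 was -0.73, against 0.03 over all genes tested. Lower calls were common too, at 19.6% of genes. PSMB8 had 40, 42 and 37 counts in DMSO and 9, 11 and 9 with ABBV-075. All of its ABBV-075 libraries were far below all DMSO libraries at a low depth, and 26.1% of genes lay below without overlap. The log2 fold change of PSMB8 came to -1.86 (SE 0.27, adjusted p = 0.000313). TAP2 had 226, 255 and 245 counts in DMSO and 90, 97 and 88 with ABBV-075, which gave -1.23 on the log2 scale (SE 0.15, adjusted p = 7.47e-05). All of its ABBV-075 libraries were low. TAP1 (-0.91), TAPBPL (-0.88), ERAP1 (-0.75) and PSMB10 (-0.72) also passed, and PSMB5, PSMB6 and PSMB7 fell by 0.61, 0.44 and 0.45 on the log2 scale in the same libraries.

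TAPBPL passed narrowly (adjusted p = 0.0289), and its adjusted p was above the threshold without any single DMSO library or without ABBV-075 replicate 1 or 2, up to 0.120. Of the genes that did not pass, PSMB9 rested on a single library: it had 36, 13 and 11 counts with ABBV-075, against 25 to 30 in DMSO. Without ABBV-075 replicate 1, the high one, its log2 fold change was -0.95 (adjusted p = 0.0387). TAPBP (-0.22), PSME2 (-0.23) and PSME1 (0.22) had intervals that included 0, with upper limits of 0.13, 0.01 and 0.50. PSME2 passed without ABBV-075 replicate 3 (-0.29, adjusted p = 0.0131). PSME1 passed as higher after a correction for GC content (0.38, adjusted p = 0.00646), where 21.6% of genes did.

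ABBV-744 without IFNg changed fewer of the genes. At 50 nM, TAPBP (0.62) and PSME1 (0.33) passed as higher, where 8.81% of 11116 genes did, and ERAP1 (-0.38) passed as lower, where 10.1% did. At 500 nM, TAPBP (0.51) passed as higher, where 7.48% of 11124 genes did, and PSMB8 (-0.85), ERAP1 (-0.52) and TAP2 (-0.40) passed as lower, where 7.80% did. TAPBP was at 24.9, 22.4 and 27.2 CPM in DMSO, at 32.2, 39.3 and 41.9 CPM with 50 nM and at 34.6, 37.5 and 33.7 CPM with 500 nM. All 6 ABBV-744 libraries lay above all 3 of DMSO, a separation that 18.7% of genes showed at 50 nM and 16.2% at 500 nM. PSMB8 was at 4.07, 3.85 and 7.77 CPM with 500 nM, all below the DMSO libraries, with replicate 3 close to them. Such a position below DMSO was shown by 15.8% of genes. The counts of calls rested on single libraries. Without 1 of the 3 DMSO libraries, or without ABBV-744 50 nM replicate 2 or 3, the count at 50 nM was 0 or 1. Without 1 of the DMSO libraries or ABBV-744 500 nM replicate 1, the count at 500 nM was between 0 and 2. The fold changes had a Spearman correlation with GC content of 0.59 across genes at 50 nM and 0.36 at 500 nM. After the GC correction at 50 nM, TAPBP passed (0.42), where 5.6% of genes passed as higher. PSME1 (0.18, adjusted p = 0.252) and ERAP1 (-0.12, adjusted p = 0.554) then did not. At 500 nM the calls were kept, and TAP1 also passed as lower (-0.30), where 9.53% of genes did.

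With IFNg present, ABBV-075 lowered all 10 genes. The log2 fold changes against IFNg alone ran from -1.24 for PSMB8 to -0.26 for TAP2, with a median of -0.61 against 0.00 over all genes. In all 10, every library with ABBV-075 lay below every library with IFNg alone, which 31.1% of genes showed. Lower calls were common, at 28.4% of 11187 genes. PSMB8 was at 24.1, 20.4 and 23.8 CPM, below 53.2 to 54.3 CPM with IFNg alone (SE 0.14, adjusted p = 1.04e-09). ERAP1 was at 74.1, 68.3 and 71.1 CPM, against 121 to 130 CPM, a log2 fold change of -0.83 (SE 0.11). Its ABBV-075 libraries were only just above the DMSO level, the highest of which was 64.2 CPM. The other called values were -0.96 for TAPBPL, -0.64 for PSMB10, -0.61 for PSMB9, -0.60 for TAP1 and TAPBP, -0.45 for PSME2 and -0.42 for PSME1. TAP2 passed narrowly (adjusted p = 0.0157) and did not pass without IFNg replicate 2 or 3 or without IFNg + ABBV-075 replicate 1, with an adjusted p of up to 0.0960.

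With ABBV-075 on top of IFNg, the log2 fold changes of IRF1 (-0.04, 95% confidence interval -0.23 to 0.15) and NLRC5 (-0.06, -0.26 to 0.14) did not pass, and GBP1, a guanylate-binding protein induced by IFNg, fell by 2.24 on the log2 scale. Of the 4 check genes of IFNg tested, 1 passed as lower and 1 as higher, where 28.4% and 28.2% of genes did. After the GC correction all 4 passed, IRF1 and NLRC5 among them. Then 3 were higher and 1 lower, where 26.8% and 29.2% of genes were. PSMB5 fell by 0.79 on the log2 scale, PSMB7 by 0.53 and PSMB6 by 0.51, all past the test. In these libraries the share of PSMB9 in its pair was 47.3% ± 1.47 (SD, n = 3) with ABBV-075 against 49.1% ± 1.42 with IFNg alone, and that of PSMB10 41.5% ± 3.08 against 43.3% ± 3.43, differences within the spread of the libraries. The share of PSMB8 was 5.13% ± 0.72 against 6.88% ± 0.29, and its 3 libraries, at 5.49%, 4.31% and 5.59%, all lay below those with IFNg alone. With ABBV-744 at 500 nM and IFNg the share was also below in every library (5.78%, 5.26% and 6.22%). At 50 nM it overlapped (6.03%, 5.23% and 6.99%).

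**Figure D3:**
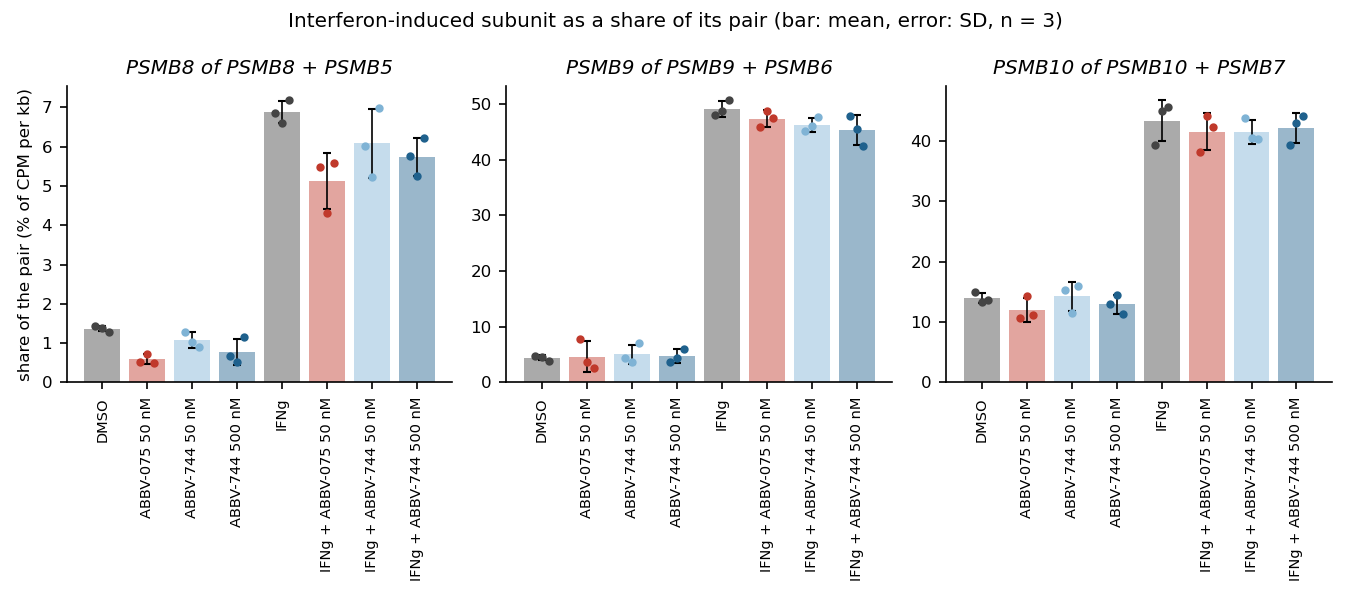
Share of the interferon-induced catalytic subunit in the sum of the pair (percent of CPM per kb), by group; bars are means, error bars SD, points the 3 libraries. Without IFNg the shares are about 1% for PSMB8, 4% to 5% for PSMB9 and 12% to 14% for PSMB10, and with IFNg 5% to 7%, 45% to 49% and 42% to 43%.

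ABBV-744 on top of IFNg lowered 6 of the 10 genes at 50 nM, where 24.3% of 11150 genes passed as lower, and 9 of the 10 at 500 nM, where 22.8% of 11091 did. None of the 10 passed as higher by edgeR, where 27.4% and 22.9% of genes did. At 50 nM TAPBPL (-0.84), PSMB8 (-0.52), TAP1 (-0.48), PSMB9 (-0.43), PSMB10 (-0.40) and TAP2 (-0.39) passed. The same 6 passed at 500 nM, at -0.93, -0.67, -0.47, -0.43, -0.33 and -0.34, together with PSME1 (-0.35), PSME2 (-0.27) and ERAP1 (-0.27). PSMB8 was at 35.7, 32.8 and 42.6 CPM with 50 nM and at 33.0, 30.3 and 39.1 CPM with 500 nM. All 6 libraries were below IFNg alone and above the 3 with ABBV-075. Of all genes, 27.7% at 50 nM and 27.2% at 500 nM lay below IFNg alone without overlap. TAPBP, at -0.20 and -0.24, did not pass at either dose, but passed without IFNg replicate 1 (-0.30 and -0.34) or without replicate 2 of the inhibitor group (-0.33 and -0.40). The 6 calls at 50 nM were kept without any single library, and PSME1 and PSME2 were gained without IFNg + ABBV-744 50 nM replicate 2 (-0.29 and -0.18), PSME1 also without IFNg replicate 3 (-0.23) and PSME2 without IFNg replicate 1 (-0.17). At 500 nM PSMB10 did not pass without IFNg replicate 2 or 3 or without IFNg + ABBV-744 500 nM replicate 1 or 2 (adjusted p 0.0563 to 0.114), nor with DESeq2, all 24 libraries in 1 fit or the GC correction. ERAP1 did not without IFNg replicate 2 or IFNg + ABBV-744 500 nM replicate 2 or 3 (adjusted p 0.0936 to 0.236), nor under 5 of the 9 other alternatives (RLE, library size only, DESeq2, no filter, all 24 libraries).

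These comparisons carried a trend with the GC content of the genes. Across about 98.5% of the genes tested, the log2 fold change had a Spearman correlation with GC content of -0.38 for IFNg with ABBV-075 against IFNg, -0.68 with ABBV-744 at 50 nM and -0.54 at 500 nM. With the trend removed in each library, 8 of the 10 genes stayed lower with ABBV-075 (TAP2 and PSME1 did not pass), where 29.2% of all genes then passed as lower. With ABBV-744, 3 passed as lower at 50 nM (TAP2, PSMB9 and ERAP1), where 18.1% did, and 6 at 500 nM, where 19.4% did. ERAP1, the gene of lowest GC content among the 10 (39.7%, against 46.9% to 61.7%), moved the other way from the rest. With 50 nM its log2 fold change was -0.03 before and -0.63 after the correction (adjusted p = 2.32e-07). TAPBP, PSME1 and PSME2 changed sign at 50 nM, to 0.14, 0.11 and 0.09, and did not pass. The cause of the trend was not tested.

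**Figure D4:**
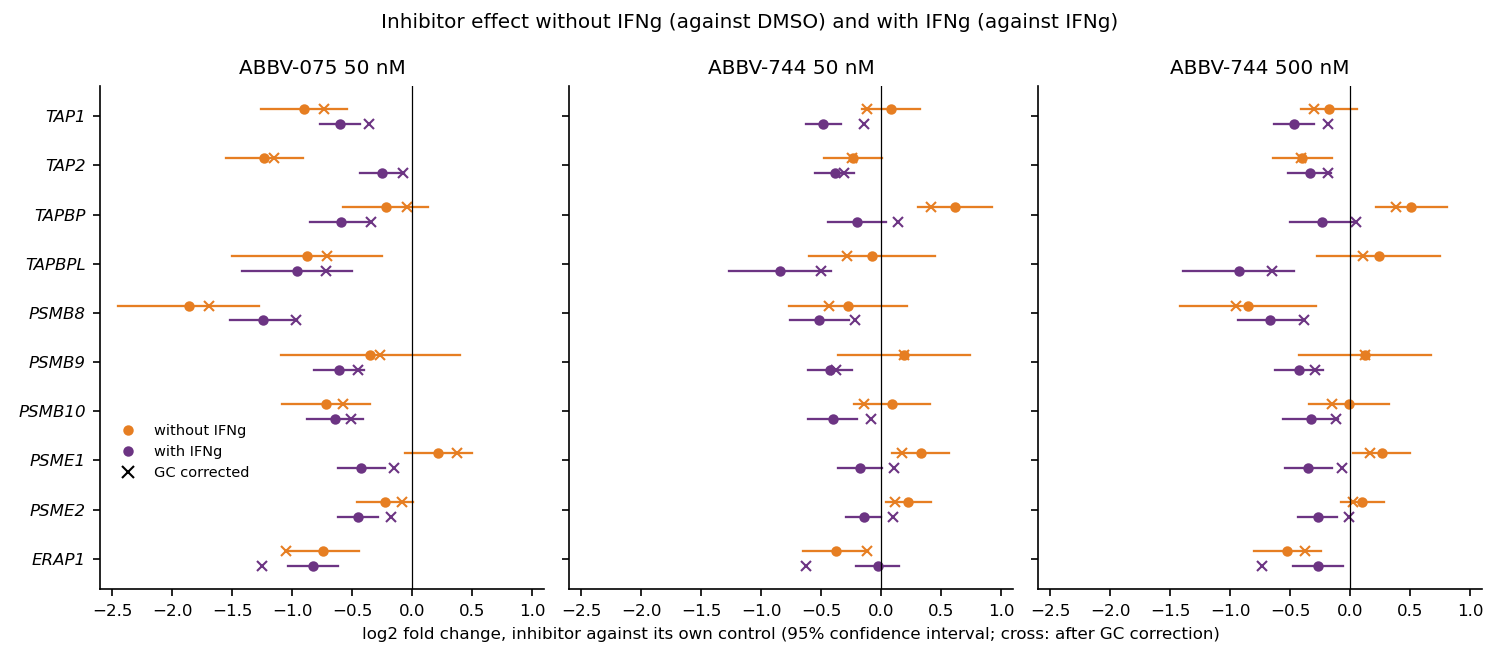
Log2 fold change of each gene for each inhibitor treatment without IFNg (orange, against DMSO) and with IFNg (purple, against IFNg alone); dots with lines are edgeR values with 95% confidence intervals and crosses are values after correction for GC content. With IFNg all 10 genes lie below 0 with each inhibitor before correction, and PSMB8 is then the lowest with ABBV-075 in both states. After it, ERAP1 (-1.25) lies below PSMB8 (-0.97) with IFNg.

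The inhibitors were compared at the matched dose of 50 nM. Without IFNg, 6 of the 10 genes were lower with ABBV-075 than with ABBV-744, where 19.4% of 10992 genes were. These were PSMB8 (-1.56, SE 0.30, adjusted p = 0.00349), TAP2 (-0.97), TAP1 (-0.97), TAPBP (-0.82), PSMB10 (-0.78) and PSME2 (-0.43), the last of which did not pass without ABBV-075 replicate 2 or ABBV-744 50 nM replicate 2 or 3. PSMB8 was at 2.17, 3.16 and 2.71 CPM with ABBV-075 and at 9.24, 7.86 and 6.35 CPM with ABBV-744. The groups did not overlap, and 27.3% of genes were lower with ABBV-075 in that way. Of those that did not pass, PSME1 differed by -0.09 (95% confidence interval -0.40 to 0.22), and PSMB9 had an interval of -1.36 to 0.33, wide enough to hold either no difference or a large one. Without ABBV-075 replicate 1 PSMB9 passed, at -1.11 (adjusted p = 0.0395), and without replicate 3 TAPBPL did, at -0.99 (adjusted p = 0.0226). The fold changes had a Spearman correlation with GC content of -0.62 across genes. After correction 5 passed as lower, where 17.9% of genes did: PSMB8 (-1.25), ERAP1 (-0.92, adjusted p = 0.000203, from -0.34 before), TAP2 (-0.90), TAP1 (-0.60) and TAPBP (-0.45). PSMB10 (-0.43) and PSME2 (-0.19) then did not pass.

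With IFNg, 4 of the 10 genes were lower with ABBV-075 than with ABBV-744 at 50 nM, where 17% of 11126 genes were. ERAP1 had the largest difference, 74.1, 68.3 and 71.1 CPM against 129.9, 111.6 and 122.1 CPM, a log2 fold change of -0.72 (SE 0.10, adjusted p = 1.31e-07). PSMB8 (-0.65, adjusted p = 0.000429), TAPBP (-0.32) and PSME2 (-0.23) followed. ERAP1 and PSMB8 passed without any single library, while the count was 2 without IFNg + ABBV-075 50 nM replicate 3 or without IFNg + ABBV-744 50 nM replicate 1 or 2. With the correction for GC content 7 passed as lower (18.3% of all genes did) and TAP2 as higher (0.25, where 16.4% did). TAP1 differed by -0.04 before correction (95% confidence interval -0.21 to 0.12) and PSMB9 by -0.11 (-0.30 to 0.09).

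ABBV-744 was also compared between its doses. By edgeR none of the 10 passed between 500 nM and 50 nM, with or without IFNg, and 0.0274% of 10967 genes and 1.7% of 11022 genes did so. DESeq2 also called none of the 10. Without IFNg the differences ran from -0.58 for PSMB8 (95% confidence interval -1.23 to 0.08) to 0.32 for TAPBPL, and no gene had an unadjusted p under 0.05. With IFNg they ran from -0.18 for ERAP1 (-0.37 to 0.02) to 0.14 for PSMB10 (-0.06 to 0.34), again with no unadjusted p under 0.05.

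The last comparison asked whether the fold rise with IFNg itself differed when an inhibitor was present. Without inhibitor the ratio of mean CPM with and without IFNg ran from 2.10 for ERAP1 to 22.4 for PSMB9, with a median of 3.72. It ran from 1.59 to 19.2 with ABBV-075 (median 3.85), from 1.52 to 14.6 with ABBV-744 at 50 nM (3.10) and from 1.17 to 15.6 at 500 nM (3.32). These medians cover genes that went both ways: with ABBV-075 the fold rise of PSMB8 was 8.50 against 5.57 without inhibitor, and that of PSME1 1.59 against 2.51.

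**Figure D5:**
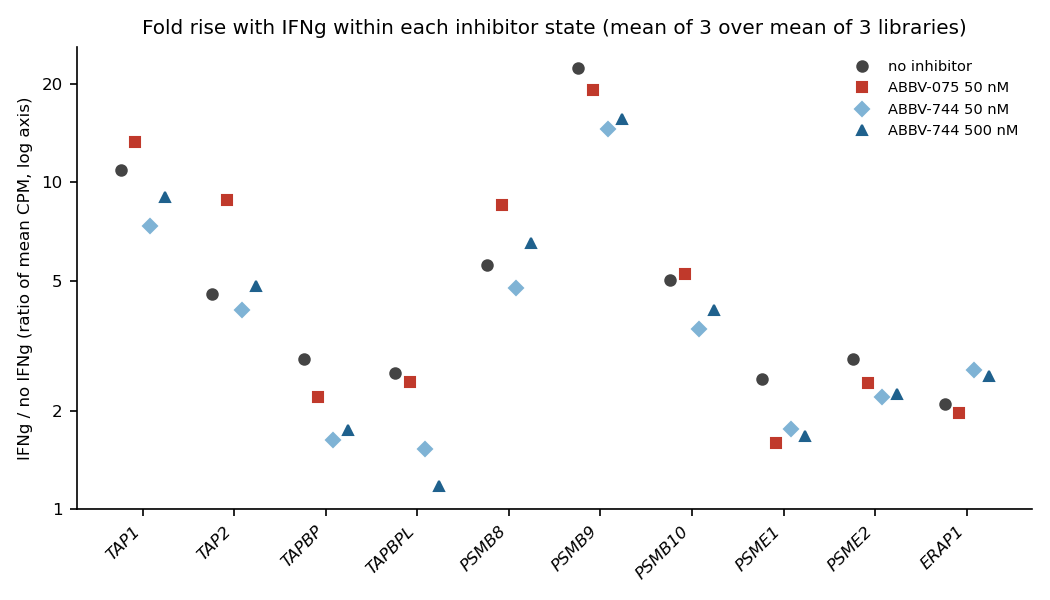
Fold rise with IFNg of each gene (mean CPM of 3 libraries with IFNg over mean of 3 without, log axis) in each inhibitor state. TAP2 is the gene with the clearest difference, 4.55-fold without inhibitor and 8.85-fold with ABBV-075.

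TAP2 was the only one of the 10 genes for which the interaction of IFNg and ABBV-075 passed, where 0.0347% of 11530 genes passed, 4 in all. Its level rose 4.55-fold with IFNg alone and 8.85-fold with ABBV-075, an interaction of 0.96 on the log2 scale (SE 0.16, 95% confidence interval 0.625 to 1.297, adjusted p = 0.0223). ABBV-075 took TAP2 down to 21.7, 27.9 and 26.5 CPM without IFNg, against 56.6 to 60.6 CPM in DMSO. With IFNg it stood at 210.3, 224.4 and 237.8 CPM, close to 242.8 to 278.4 CPM with IFNg alone. The adjusted p was 0.000110 after the GC correction, where 0.234% of genes passed in either direction. It was above the threshold, from 0.0551 to 0.128, without any 1 of the DMSO or IFNg libraries or without IFNg + ABBV-075 replicate 2 or 3. Over all 12 fits that left out a library the interaction ran from 0.85 to 1.03 on the log2 scale.

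PSME1 had the second clearest value with ABBV-075, at -0.66 (95% confidence interval -0.98 to -0.34), but did not pass (adjusted p = 0.208) unless ABBV-075 replicate 1 was left out (-0.74, adjusted p = 0.0141). PSMB8, the gene of the lowest log2 fold change with ABBV-075 in both states before the GC correction, had an interaction of 0.60 (0.02 to 1.19, adjusted p = 0.739). With ABBV-744 the interaction was negative and passed for 6 genes at 50 nM (TAPBP, PSMB9, TAP1, PSME1, PSMB10 and PSME2), where 26.5% of 11451 genes passed as lower, and for 4 at 500 nM (TAPBPL, TAPBP, PSME1 and PSME2), where 15% of 11428 did. The interaction had a Spearman correlation with GC content of -0.77 and -0.66 across genes. After correction, ERAP1 alone passed at 50 nM (-0.51, adjusted p = 0.00571, from 0.32 before), where 11% of genes passed as lower, and at 500 nM the lowest adjusted p of the 10 genes was 0.0859. TAPBP, the largest of the called values at 50 nM, went from -0.85 to -0.28.

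Over all 24 libraries the genes moved together. The Pearson correlation of each gene's log2 CPM with the mean of the other 9 ran from 0.79 for TAPBPL to 0.99 for PSME2, a description that rests mostly on the split between libraries with and without IFNg. The genes outside the 10 with the most similar pattern to their mean were BATF2, a transcription factor (r = 0.991), UBD, a ubiquitin-like modifier (0.988), UBE2L6, an ISG15-conjugating enzyme (0.987), TGM2, a transglutaminase (0.986), and TRIM21, an antibody receptor and ubiquitin ligase (0.985). No p is given, since these libraries share their treatments.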

How the data were processed

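HepG2 RNA was sequenced in 24 libraries, 3 in each of 8 groups. Per the labels and the submitters' processing notes, the authors trimmed reads with Trimmomatic 0.33 and aligned them to hg38 with STAR 2.7.1, and deposited whole-number counts per gene. The annotation used for counting is not given in the sources used here. The count column for the strand of the gene was used, since 98.3% to 98.5% of stranded counts lay on it. Rows that name no gene stayed out of library sizes. Reads outside genes made up 14.8% to 25.3% of each file and reads aligning to several places 56.0% to 69.4%, which leaves 12.0% to 16.8% on genes.

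Counts were tested with edgeR 4.0.16 (filterByExpr, TMM scaling, quasi-likelihood fit and test) in R 4.3.3, in fits on the 2 groups of each of 11 pairwise comparisons and on the 4 groups of each of 3 interactions. P-values were adjusted by Benjamini-Hochberg over all genes tested, and a gene passed at an adjusted p of at most 0.05. The study's threshold of 1.5 on the log2 scale is given beside it for IFNg against DMSO. Elsewhere only PSMB8 exceeded it, as lower with ABBV-075 than with DMSO (3.19% of genes) or with ABBV-744 at 50 nM (1.63%). None of the 10 did when an inhibitor was added to IFNg, or in any interaction. All tests are two-sided. All 10 genes were tested in all 14 comparisons, and the lowest count of any of them in a library was 9. Depth limits low genes such as PSMB8, PSMB9 and TAPBPL most.

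The genes, the other lists and the named genes were chosen with earlier results of these data known. Named genes were all 10 members, the constitutive catalytic subunits, ERAP2, B2M, CALR, CANX, PDIA3, PSME3, the check genes of the treatments, the gene of largest change among those that passed in each other list, and the 5 genes most correlated with the members; 2 of the listed genes are not reported here. Alternatives were RLE scaling, library size alone, DESeq2 1.42.0, all genes without the filter, a minimum of 10 counts in each library, a replicate block, 1 fit over all 24 libraries, counts of both strands, a correction for GC content (lowess of span 0.3 in each library) and each library left out in turn. Replicate pairs differed by more than sampling noise (chi-square per degree of freedom 1.62 to 15.5), so no library was counted as a copy. On simulated counts with 200 changed genes, the IFNg comparison (11206 genes) recovered 95% of changes of 1 and 100% of changes of 2 on the log2 scale, and the interaction with ABBV-075 (11402 genes) 55% and 98%. Every simulated gene had the same fixed spread between replicates, and only genes above a count floor were changed. These rates therefore do not give the recovery for the 10 genes themselves.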

Additional observations from a re-analysis of the deposited data

Results flagged for a closer look

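The fold rise with IFNg differed with and without an inhibitor, by the interaction term of edgeR's fit, for the following genes. With ABBV-075 it was larger for TAP2, by 0.96 on the log2 scale (adjusted p = 0.0223), and 1.08 after the GC correction. TAP2 did not pass in 8 of the 12 fits that left out a library (adjusted p up to 0.128).

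With ABBV-744 at 50 nM it was smaller for TAPBP (-0.85), PSMB9 (-0.65), TAP1 (-0.60), PSME1 (-0.53), PSMB10 (-0.53) and PSME2 (-0.40), where the median over all genes was -0.14. After the GC correction these values were -0.28, -0.56, -0.03, -0.08, 0.06 and -0.02, and none of the 6 passed (adjusted p 0.111 to 0.899). PSMB9 also did not pass in 6 of the 12 fits that left out a library (adjusted p up to 0.238), nor PSMB10 without DMSO replicate 2 (-0.47) or ABBV-744 50 nM replicate 3 (-0.43).

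With ABBV-744 at 500 nM it was smaller for TAPBPL (-1.15), TAPBP (-0.73), PSME1 (-0.59) and PSME2 (-0.35), where the median over all genes was -0.09. After the GC correction these values were -0.75, -0.33, -0.24 and -0.04, and none of the 4 passed. TAPBPL did not pass without IFNg replicate 3, and PSME2 did not without DMSO replicate 3.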

How the results depend on the processing

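All 10 calls for IFNg against DMSO were kept under every alternative and without any single library. For ABBV-744 50 nM against DMSO, 3 genes passed, and 1 with DESeq2, all 24 libraries, the replicate block, both strands or the GC correction (0 to 4 leaving out a library). For ABBV-744 500 nM against DMSO, 4 passed, and 1 with DESeq2 (0 to 4 leaving out a library). With the GC correction 3 rather than 6 passed for IFNg + ABBV-744 50 nM against IFNg, and 8 rather than 4 for IFNg + ABBV-075 against IFNg + ABBV-744 50 nM (2 to 4 leaving out a library). The interaction with ABBV-075 had 0 to 2 leaving out a library. That with ABBV-744 50 nM went from 6 to 3 with library size only (TAP1 and TAPBP lower, and ERAP1 higher at 0.50) and to 1 with the GC correction, and that with 500 nM from 4 to 0 with the GC correction.

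The GC correction changed the sign of 16 of the 140 values of the 10 genes, of which 1 passed before it and 1 after. Among genes that passed in any fit of the comparison, these were TAPBP (0.14), PSME1 (0.11) and PSME2 (0.095) with IFNg + ABBV-744 50 nM against IFNg, TAPBP (0.053) with 500 nM, and PSMB10 (0.059) and ERAP1 (-0.51) in the interaction with ABBV-744 50 nM. ERAP1 with IFNg + ABBV-744 50 nM against IFNg was 0.025 with library size only and -0.101 to 0.012 leaving out a library, and TAP1 between the inhibitors with IFNg was -0.088 to 0.029 leaving out a library. The cause of these changes was not tested. Library size only put the median of all genes at -0.10 for ABBV-744 50 nM against DMSO, at -0.12 between the inhibitors at 50 nM with IFNg, and at 0.04 rather than -0.14 for the interaction with ABBV-744 50 nM. At least 10 counts in every library left PSMB8 untested in both comparisons of ABBV-075 without IFNg.

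No consistent pairing by replicate number was seen. For IFNg against DMSO the correlations of same-numbered libraries were -0.14, -0.03 and -0.04. The highest mean, 0.23, was between the ABBV-744 doses without IFNg (0.28, 0.38 and 0.05). No comparison had all 3 above 0.1. The replicate block moved no other count of calls by over 1.5 times.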

Other observations

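ERAP2, the trimming peptidase that partners ERAP1, rose with IFNg alone like the 10 genes. It moved unlike them when ABBV-744 was added to IFNg. Without IFNg its log2 fold change against DMSO was -1.07 with ABBV-075, -1.08 with ABBV-744 at 50 nM and -0.98 at 500 nM, all past edgeR's test before the GC correction. With IFNg it was -0.22 with ABBV-075, which did not pass, but 0.98 with ABBV-744 at 50 nM and 0.56 at 500 nM against IFNg alone (adjusted p = 5.41e-10 and 7.45e-05). After the GC correction these were -0.58, 0.45 and 0.16, of which the last did not pass. Higher calls with ABBV-744 were common, at 27.4% of genes for 50 nM (16.3% after correction) and 22.9% for 500 nM (17.4%). The interaction was 2.04 with ABBV-744 at 50 nM (1.295 after correction, adjusted p = 3.84e-06) and 1.56 at 500 nM (1.01 after correction, adjusted p = 8.01e-05). Interactions passed as higher for 25% of genes at 50 nM (9.35% after correction) and 18.5% at 500 nM (7.54%).

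CALR and PDIA3, chaperones of class I loading, did not pass with IFNg alone but were lower when an inhibitor was added to it. CALR changed by -0.77 with ABBV-075, -0.65 with ABBV-744 at 50 nM and -0.69 at 500 nM, and PDIA3 by -0.94, -0.64 and -0.55, all past the test before and after the GC correction. The fall was not confined to them: HSPA5, another chaperone of their list, passed with a larger fall than either with ABBV-075. Lower calls were common, at 28.4% of genes with ABBV-075, 24.3% with ABBV-744 at 50 nM and 22.8% at 500 nM. After the GC correction these shares were 29.2%, 18.1% and 19.4%. The genes named under this heading were chosen for description after their values were seen.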
